A study of Mus musculus with 2 samples.

Results

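The 10 JAK, STAT and SOCS signalling genes described here were followed in donor T cells after allogeneic hematopoietic cell transplantation (allo-HCT). They are the kinases Jak1, Jak2 and Jak3, the transcription factors Stat3, Stat4, Stat5a and Stat5b, and the inhibitors Socs1, Socs3 and Cish, taken by symbol, 10 of the 32285 genes in the count tables. The C57BL/6→BALB/c model was used, in which irradiated BALB/c mice received T cell–depleted bone marrow together with purified splenic naive T cells of wild-type C57BL/6 mice, and acute graft-versus-host disease (aGvHD) follows. Donor T cells bearing CD45, H2Kb and TCRβ but not H2Kd were sorted from recipient spleens at day +7 and at day +14 and captured on the 10x Genomics system, with 1 library per day. Both libraries carry PBS in their names, the mice were young adult females, and the cells of a library were pooled from several spleens. The dose on the labels is 200000 naive T cells. A different dose, of purified splenic T cells not called naive, is given in the description of the experiment elsewhere. The labels place the sort of both libraries at day +7, so the day was read from the library titles. Day and library cannot be told apart, no T cells from before transplant or from syngeneic recipients are among these libraries, and no difference between the days was tested.

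Barcodes with 500 to 7500 detected genes and no more than 15% mitochondrial UMIs (unique molecular identifiers, each marking 1 captured RNA molecule) were kept, 7179 of 7355 at day +7 and 7794 of 8043 at day +14. The libraries held 87124828 and 84233811 UMIs, the kept cells had a median of 9210 and 8144 UMIs, and 20 barcode sequences occurred in both libraries. Barcodes with more UMIs of myeloid, erythroid, B cell or platelet markers than of T cell receptor complex genes, 210 at day +7 and 147 at day +14, were kept out of every T cell gate. CD8 cells had at least 2 UMIs of Cd8a plus Cd8b1, none of Cd4 and fewer than 2 of Foxp3, and numbered 5649 at day +7 and 5786 at day +14. By a list of 18 cell cycle genes, 4214 and 4433 of these were cycling and 638 and 542 were non-cycling. CD4 cells, with at least 1 Cd4 UMI and none of Cd8a, Cd8b1 or Foxp3, numbered 459 and 695, of which 98 and 122 were non-cycling. Foxp3+ cells, with at least 2 Foxp3 UMIs, numbered 133 and 52. Within the T cell gates the 10 myeloid genes summed to between 31.6 and 123 UMIs per 1000000 UMIs (CPM, counts scaled to a common total). The B cell genes summed to at most 32.7 CPM and the erythroid genes to at most 26.3 CPM. These lists defined the barcodes kept out, so low sums were in part set by that filter. The 2 NK genes, which it did not use, summed to at most 21.9 CPM. That was in non-cycling CD8 cells at day +7, against 1.75 CPM at day +14.

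Receptors of interleukins and interferons have no kinase of their own. Their chains hold Janus kinases (JAKs) on the inner side of the membrane, and when a cytokine joins the chains, the kinases phosphorylate them and the STAT proteins that dock there, which pair, enter the nucleus and switch on target genes. Among these targets are the SOCS family and CISH, which bind the receptors or the kinases and turn the signal down, so their transcripts are widely used as a sign of recent cytokine signalling. In T cells JAK1 and JAK3 serve the receptors that share the common γ chain, such as those for IL-2 and IL-7, JAK2 serves among others the receptors for IL-12 and IFN-γ, STAT5 follows IL-2 and IL-7, STAT4 follows IL-12, and STAT3 follows IL-6, IL-10 and IL-21.

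STAT pairs bind the palindrome TTCNNNGAA, where N is any base, and the promoters of the members were read for it because it is the sequence through which a STAT can act on its own inhibitors. RefSeq promoters of 300 bases (GRCm38.p6, 250 bases before to 50 after the annotated start) were found for all 10 members. The motif, which reads alike on both strands, occurred in the promoters of Cish and Socs3 and in none of the windows of the other 8 members, Socs1 among them. Cish held it 2 times, from the base at the RefSeq start site (TTCCTGGAA) and from 11 bases further on (TTCTTGGAA). Socs3 held it once, from position -154 (TTCTTAGAA). Both windows lay inside the gene as placed by GENCODE, at chr9:107296026-107302784 for Cish and chr11:117966079-117970047 for Socs3. These positions thus hold for the RefSeq starts, and sequence before the GENCODE starts of these genes was not read. Of 32851 promoters in the table, 8.3% held the motif at least once and 0.457% held it 2 times or more. A match is a description of these letters, and its use in these cells was not measured. The windows of the 3 inhibitors are shown 5′ to 3′ on the strand of the gene with the motif in capitals, for Cish at chr9:107296409-107296708 (plus strand), Socs3 at chr11:117969317-117969616 (minus strand) and Socs1 at chr16:10785487-10785786 (minus strand).
Cish: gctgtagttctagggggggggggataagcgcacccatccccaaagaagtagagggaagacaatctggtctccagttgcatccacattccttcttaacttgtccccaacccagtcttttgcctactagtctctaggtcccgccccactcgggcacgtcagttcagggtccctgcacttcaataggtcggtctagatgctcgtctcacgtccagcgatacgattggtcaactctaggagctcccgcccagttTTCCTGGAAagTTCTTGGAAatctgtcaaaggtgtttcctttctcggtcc
Socs3: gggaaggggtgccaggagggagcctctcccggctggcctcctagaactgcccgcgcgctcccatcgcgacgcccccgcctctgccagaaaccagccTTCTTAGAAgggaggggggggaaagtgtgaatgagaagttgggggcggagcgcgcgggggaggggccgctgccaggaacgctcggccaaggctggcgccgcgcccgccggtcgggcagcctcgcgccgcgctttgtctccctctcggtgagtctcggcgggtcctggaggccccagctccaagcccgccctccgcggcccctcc
Socs1: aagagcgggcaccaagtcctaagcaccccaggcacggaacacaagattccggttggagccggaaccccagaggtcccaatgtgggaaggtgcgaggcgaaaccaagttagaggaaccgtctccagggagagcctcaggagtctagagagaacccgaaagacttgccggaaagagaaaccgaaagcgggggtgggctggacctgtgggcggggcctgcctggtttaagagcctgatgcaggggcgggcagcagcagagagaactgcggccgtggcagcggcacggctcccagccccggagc

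Levels are CPM, from the UMIs of a gene and of all genes summed over the cells of a gate, with exact Poisson 95% intervals in brackets. Ratios are log2 of CPM over CPM with exact conditional binomial 95% intervals. Both intervals cover counting error only and not differences between mice, and UMIs of different genes are not compared, since gene length was not taken into account. CPM is a share of UMIs and not an amount per cell. All 10 members had a mean of at least 10 CPM in each comparison.

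**Figure D1:**
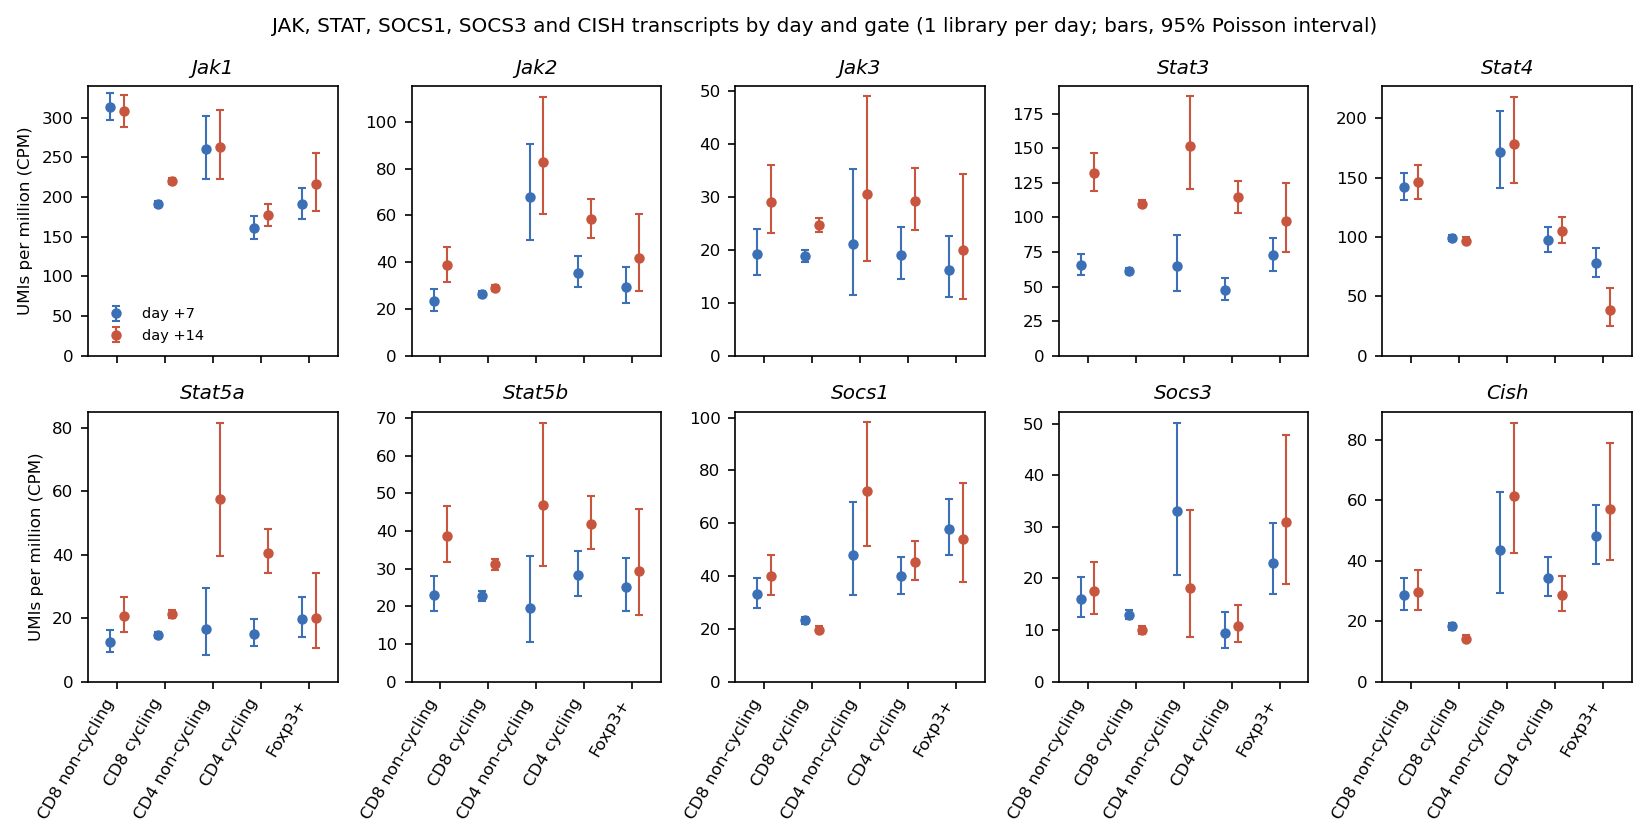
Each panel is 1 gene, with its level in CPM (linear axis from 0) in 5 gates at day +7 (blue) and day +14 (red). Points are 1 library each and bars are exact Poisson 95% intervals. Stat3 was higher at day +14 in each gate, while Stat4 was about level in the CD8 and CD4 gates and lower at day +14 among Foxp3+ cells.

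Among the kinases, Jak1 was highest outside the cell cycle, Jak2 was highest in CD4 cells, and Jak3 differed little between gates. Jak1 (chr4:101152367-101265282, GRCm38, minus strand), the kinase shared by most cytokine receptors of T cells, ranged 1.95-fold between the highest and the lowest of 10 groups of day and gate. Among CD8 cells its level was 313 CPM [297, 331] at day +7 against 308 CPM [288, 329] at day +14 in the non-cycling gate, and 192 CPM [188, 195] and 220.4 CPM [217, 224] in the cycling gate. Non-cycling CD4 cells were at 260.3 CPM [223, 302] and 263 CPM [222, 309.7], cycling CD4 cells at 161 CPM [148, 176] and 177 CPM [163, 191], and Foxp3+ cells at 191 CPM [172, 211] and 216 CPM [182, 255]. Jak1 was thus higher in non-cycling than in cycling cells of both lineages on both days, with intervals that did not overlap, and the intervals of the 2 days overlapped in each gate but cycling CD8.

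Jak2 (chr19:29251828-29313080, plus strand) had a higher level in CD4 than in CD8 cells. In the non-cycling CD4 gate it was at 67.7 CPM [49.4, 90.6] at day +7 against 83.0 CPM [60.8, 111] at day +14, its highest levels. Non-cycling CD8 cells had 23.5 CPM [19.1, 28.6] and 38.6 CPM [31.7, 46.5], and cycling CD8 cells 26.2 CPM [24.9, 27.6] and 28.9 CPM [27.6, 30.3]. The CD4 and CD8 intervals did not overlap on either day among non-cycling cells. Cycling CD4 cells had 35.5 CPM [29.4, 42.6] and 58.2 CPM [50.4, 66.9], and Foxp3+ cells 29.4 CPM [22.5, 37.9] and 41.7 CPM [27.5, 60.7]. Jak3 (chr8:71676296-71690575, plus strand), the partner kinase of the common γ chain, whose locus overlaps Insl3 on the same strand, differed less among the gates. At day +7 it lay between 16.2 CPM [11.1, 22.7] in Foxp3+ cells and 21.1 CPM [11.5, 35.3] in non-cycling CD4 cells, and at day +14 between 20.1 CPM [10.7, 34.4] and 30.7 CPM [17.9, 49.1] in the same gates. Within each day the intervals of the 5 gates overlapped for Jak3, and the largest gate, cycling CD8, went from 18.9 CPM [17.8, 20.1] to 24.7 CPM [23.4, 26.0].

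Stat3 (chr11:100885098-100939540, minus strand) was the member with the widest difference between the days across the CD8 gates, and it was higher at day +14 in each gate. Its level in non-cycling CD8 cells was 65.6 CPM [58.2, 73.8] at day +7 against 132 CPM [119, 146] at day +14, and in cycling CD8 cells 61.3 CPM [59.3, 63.4] and 109.9 CPM [107, 113]. In non-cycling CD4 cells it was 64.7 CPM [46.8, 87.1] and 152 CPM [121, 188], in cycling CD4 cells 47.8 CPM [40.6, 55.9] and 114 CPM [103, 126], and in Foxp3+ cells 72.6 CPM [61.4, 85.3] and 97.4 CPM [74.8, 125]. The 2 days did not overlap in any of the 4 CD8 and CD4 gates, and their intervals overlapped among Foxp3+ cells. All 5 groups of day +14 were above all 5 of day +7. The log2 ratio of day +14 over day +7 was 1.01 [0.78, 1.24] in non-cycling CD8 cells, 0.84 [0.78, 0.90] in cycling CD8 cells and 1.33 [1.12, 1.55] in CD4 cells, and that of CD4 cells exceeded that of cycling CD8 cells by 0.49 [0.27, 0.71]. Among 6804 genes tested in cycling CD8 cells Stat3 stood at percentile 97.1 of the ratios.

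Stat5a (chr11:100859351-100885169, plus strand) and Stat5b (chr11:100780731-100850724, minus strand), which encode the paired STAT5 proteins acting downstream of IL-2 and IL-7, lie next to Stat3. The annotated 3′ ends of Stat3 and Stat5a overlap on opposite strands, Stat5a and Stat5b are close relatives in sequence, and whether the counting used strand is not given in the sources used here, so part of the UMIs of 1 gene could belong to another. Stat5a was at 16.6 CPM [8.26, 29.6] at day +7 against 57.7 CPM [39.5, 81.5] at day +14 in non-cycling CD4 cells, and at 15.01 CPM [11.1, 19.8] and 40.7 CPM [34.2, 48.0] in cycling CD4 cells. In CD8 cells it was at 12.5 CPM [9.34, 16.3] and 20.7 CPM [15.8, 26.7] outside the cycle and at 14.7 CPM [13.8, 15.8] and 21.4 CPM [20.2, 22.6] in it. The difference between the days was thus larger in the CD4 gate, with a log2 ratio of 1.40 [1.00, 1.81] against 0.53 [0.41, 0.66] in cycling CD8 cells, and the difference of these ratios was 0.86 [0.45, 1.27]. Foxp3+ cells were at 19.6 CPM [14.0, 26.7] and 20.1 CPM [10.7, 34.4], on 40 and 13 UMIs.

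Stat5b was also higher at day +14 in the CD8 and CD4 gates. It was at 23.1 CPM [18.7, 28.1] and 38.6 CPM [31.7, 46.5] in non-cycling CD8 cells and at 22.7 CPM [21.5, 24.0] and 31.1 CPM [29.7, 32.6] in cycling CD8 cells. In non-cycling CD4 cells it was at 19.6 CPM [10.4, 33.4] and 46.9 CPM [30.6, 68.7], in cycling CD4 cells at 28.2 CPM [22.7, 34.6] and 41.8 CPM [35.3, 49.3], and in Foxp3+ cells at 25.0 CPM [18.6, 32.9] and 29.4 CPM [17.7, 45.9]. The days were apart beyond their counting intervals in both CD8 gates and in cycling CD4 cells, and overlapped in non-cycling CD4 and Foxp3+ cells.

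Stat4 (chr1:51987148-52107189, plus strand), the factor through which IL-12 drives type 1 T cells, set the Foxp3+ cells apart. It was at 78.0 CPM [66.4, 91.1] at day +7 against 38.6 CPM [25.0, 57.1] at day +14 in that gate, the 2 lowest of its 10 groups. Non-cycling CD8 cells had 142 CPM [131, 154] and 146 CPM [132, 161], cycling CD8 cells 99.4 CPM [96.8, 102] and 97.0 CPM [94.5, 99.6], non-cycling CD4 cells 172 CPM [141, 206] and 179 CPM [145, 217], and cycling CD4 cells 97.4 CPM [87.0, 109] and 105 CPM [94.7, 117]. Outside the Foxp3+ gate the intervals of the 2 days overlapped in every gate, and non-cycling cells were above cycling cells of the same lineage on both days. Barcodes bearing other lineages had 11.2 CPM [8.37, 14.6] and 26.5 CPM [18.5, 36.9], under the T cell gates.

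Among the inhibitors, Socs1 (chr16:10782240-10785536, minus strand), which blocks JAK1, JAK2 and TYK2, was higher in CD4 and Foxp3+ cells than in cycling CD8 cells. Foxp3+ cells had 57.9 CPM [47.9, 69.3] at day +7 against 54.1 CPM [37.7, 75.2] at day +14, and non-cycling CD4 cells 48.1 CPM [32.9, 68.0] and 72.2 CPM [51.5, 98.3]. Cycling CD4 cells had 39.8 CPM [33.3, 47.3] and 45.4 CPM [38.5, 53.1], non-cycling CD8 cells 33.2 CPM [27.9, 39.1] and 40.0 CPM [33.0, 48.0], and cycling CD8 cells 23.2 CPM [21.9, 24.4] and 19.7 CPM [18.6, 20.9]. The cycling CD8 gate was the lowest on each day and lay apart from every other gate, and it was lower at day +14, while the CD4 gate as a whole was higher at day +14. The difference between these 2 ratios was 0.58 [0.30, 0.86]. The log2 ratio of the CD4 gate, 0.35 [0.09, 0.61], held in its interval the median of all genes, 0.17.

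Cish (chr9:107296026-107302784, plus strand), which STAT5 induces and which curbs IL-2 receptor signalling, had the same order of gates at day +7, with cycling CD4 and non-cycling CD8 cells overlapping on both days. It was at 48.1 CPM [39.0, 58.6] and 57.2 CPM [40.3, 78.8] in Foxp3+ cells, at 43.6 CPM [29.2, 62.7] and 61.3 CPM [42.5, 85.7] in non-cycling CD4 cells and at 34.3 CPM [28.2, 41.3] and 28.7 CPM [23.3, 35.0] in cycling CD4 cells. CD8 cells had 28.7 CPM [23.8, 34.3] and 29.8 CPM [23.8, 36.9] outside the cycle and 18.2 CPM [17.1, 19.4] and 14.3 CPM [13.3, 15.3] in it. As with Socs1, cycling CD8 cells were the lowest group on both days, and among these cells the day +14 interval lay below that of day +7. Antisense and pseudogene models overlap the Cish locus on the other strand.

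Socs3 (chr11:117966079-117970047, minus strand), which acts mainly on receptors of the IL-6 family, had few UMIs in the CD4 and Foxp3+ gates, and its order of gates was less clear. It was at 33.1 CPM [20.7, 50.1] at day +7 against 18.0 CPM [8.65, 33.2] at day +14 in non-cycling CD4 cells, on 22 and 10 UMIs, and at 9.50 CPM [6.45, 13.5] and 10.8 CPM [7.62, 14.9] in cycling CD4 cells. Foxp3+ cells had 23.1 CPM [16.9, 30.7] and 30.9 CPM [18.9, 47.8], non-cycling CD8 cells 16.0 CPM [12.4, 20.3] and 17.5 CPM [13.0, 23.1], and cycling CD8 cells 13.0 CPM [12.0, 13.9] and 9.98 CPM [9.18, 10.8]. Cycling cells were below Foxp3+ cells on both days, and most other neighbours overlapped.

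Between the days, Stat3, Stat5a, Stat5b and Jak3 were above the median gene in the 2 CD8 gates and in CD4 cells, and Socs3 and Cish were below it. In non-cycling CD8 cells Socs3 and Cish were near the median gene, at -0.039 and -0.117 relative to it, and their intervals held it. With scaling to the median ratio of genes Socs3 was at 0.028 there. A gene was counted when its CPM differed by at least 1.5-fold, a rule of size. In non-cycling CD8 cells 5 of the 10 members were at least 1.5-fold higher at day +14, against 19.3% of the 6646 genes tested, and none was as much lower, against 4.35%. These were Stat3, Stat5b at 0.74 [0.34, 1.15], Stat5a at 0.73 [0.17, 1.29], Jak2 at 0.71 [0.31, 1.12] and Jak3 at 0.59 [0.14, 1.05] on the log2 scale. In CD4 cells the 5 were the same genes, against 15.4% of genes higher and 3.04% lower, with Stat5a and Stat3 ahead of Stat5b at 0.77 [0.45, 1.10], Jak3 at 0.67 [0.27, 1.07] and Jak2 at 0.59 [0.34, 0.85]. In cycling CD8 cells, the most deeply counted gate, Stat3 alone of the 10 was past 1.5-fold, against 9.11% of genes higher and 2.88% lower. With scaling to the median ratio of genes these shares were 3.53% and 5.09%, and Stat3 was still past 1.5-fold. In Foxp3+ cells no member was 1.5-fold higher, against 21.3%, and Stat4 was lower at -1.01 [-1.68, -0.40], against 5.69%. This count rested on the gate, and a second Foxp3+ gate described further on gave 6 other members and not Stat4. Over all T cells together 2 members, Stat3 and Stat5a, were 1.5-fold higher, against 10.3% of genes, and none lower, against 2.72% (3.9% and 5.25% with scaling to the median ratio). With that scaling Stat5a was at 0.48 and short of the rule, and Socs3 at -0.61 was past it.

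**Figure D2:**
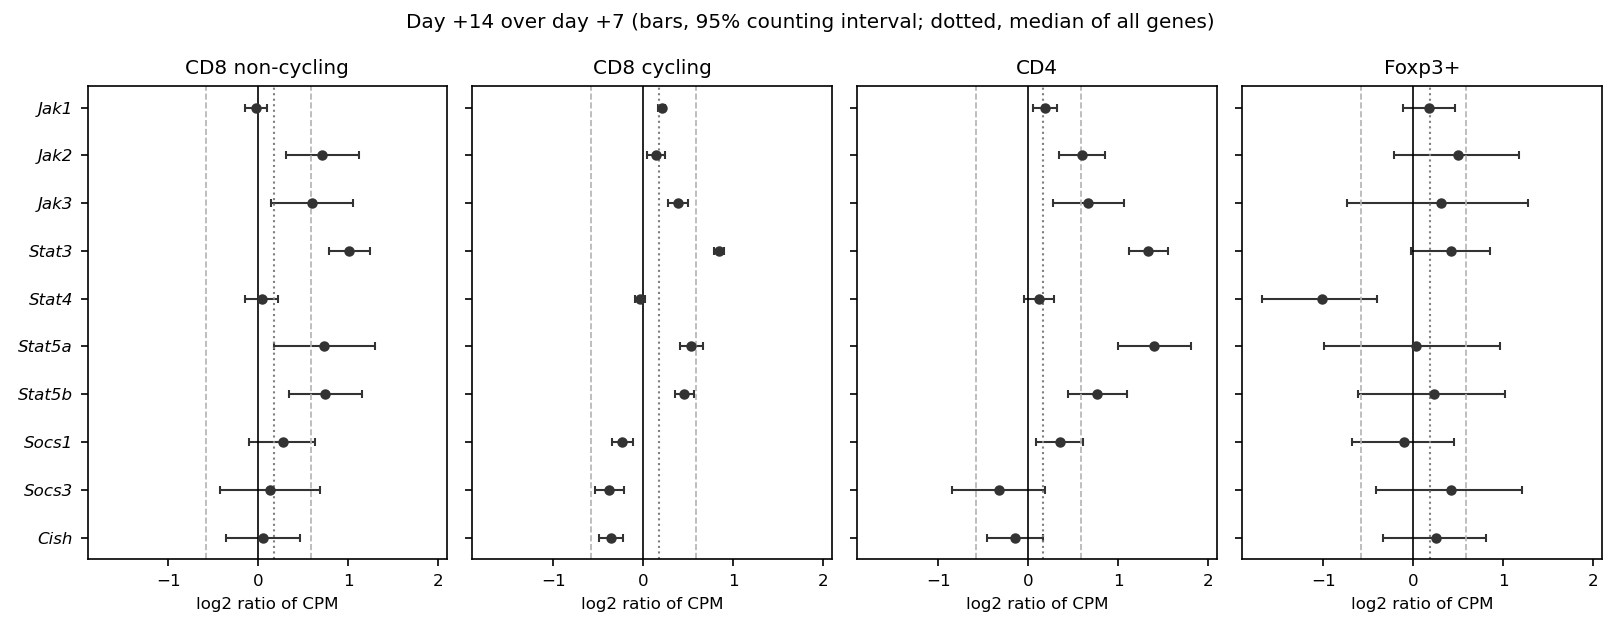
The log2 ratio of CPM at day +14 over day +7 is shown for each gene in 4 gates, with 95% counting intervals. Dashed lines mark 1.5-fold and dotted lines the median of all genes tested, and Stat3 lies right of both in the CD8 and CD4 gates, while Socs3 and Cish lie left of the dotted line in the cycling CD8 and CD4 gates.

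The median gene was itself higher at day +14, by 0.18 in cycling CD8 cells and 0.17 in CD4 cells on the log2 scale. The median of the 10 members was 0.17 in cycling CD8 cells, 0.43 in non-cycling CD8 cells, where all genes had 0.17, and 0.47 in CD4 cells. In cycling CD8 cells the 3 inhibitors were below 0, Socs3 at -0.38 [-0.54, -0.22], Cish at -0.36 [-0.49, -0.22] and Socs1 at -0.23 [-0.35, -0.12], and stood at percentiles 5.10, 5.57 and 9.33 of all genes. Stat5a at 0.53 [0.41, 0.66], Stat5b at 0.45 [0.35, 0.56] and Jak3 at 0.39 [0.27, 0.50] were above the median gene in the same cells. Jak1 at 0.20 [0.17, 0.24] and Jak2 at 0.14 [0.04, 0.24] were near it, and with scaling to the median ratio of genes they were at -0.0049 and -0.07. Stat4 was at -0.035 [-0.089, 0.018]. In non-cycling CD8 cells none of the inhibitors departed from 0 beyond the interval, with Socs1 at 0.27 [-0.10, 0.64], Socs3 at 0.13 [-0.42, 0.68] and Cish at 0.054 [-0.36, 0.47]. In CD4 cells Socs1 was at 0.35 [0.09, 0.61], Socs3 at -0.33 [-0.84, 0.18] and Cish at -0.15 [-0.46, 0.17].

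**Figure D3:**
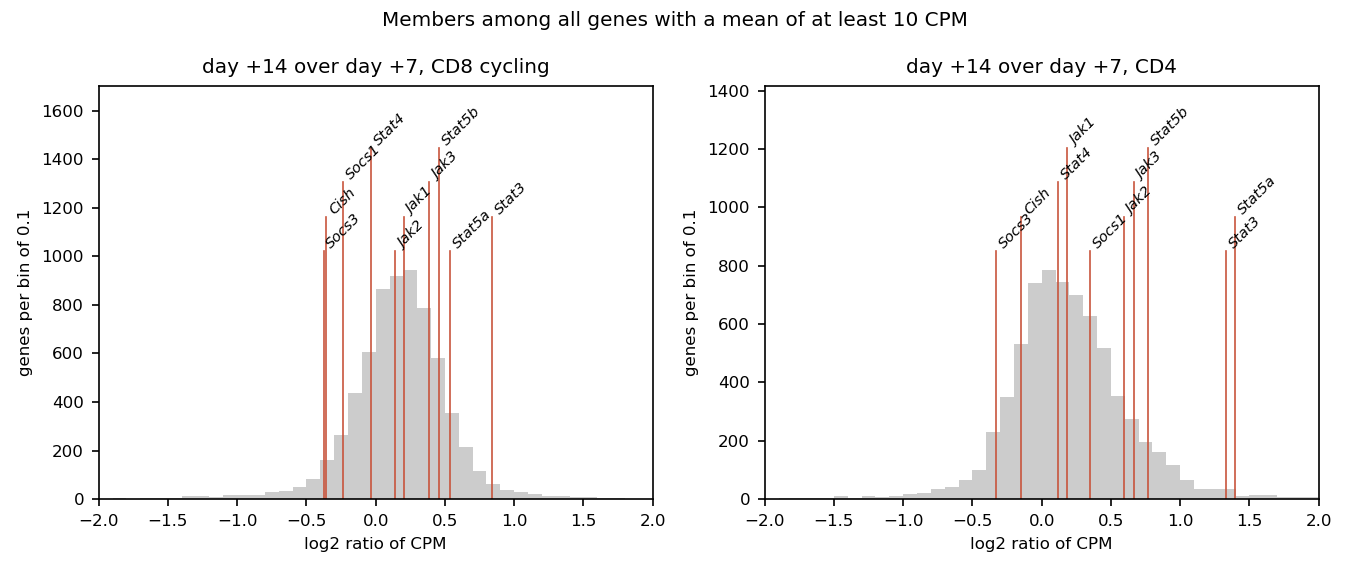
Gray bars count genes from a mean of 10 CPM upward by their log2 ratio of day +14 over day +7, in bins of 0.1, for cycling CD8 cells (left) and CD4 cells (right), and red lines mark the 10 members. Socs3 and Cish lie left of the peak and Stat3 in the right tail of both distributions, and Stat5a joins Stat3 in the right tail in CD4 cells.

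Non-cycling CD4 and CD8 cells of the same library were compared next. CD4 cells had more Jak2 on both days and more of the inhibitor Cish. At day +7, 3 of 10 members were at least 1.5-fold higher in CD4 cells, against 13.6% of 6393 genes, and none was as much lower, against 7.3%. They were Jak2 at a log2 ratio of 1.52 [0.98, 2.05], Socs3 at 1.05 [0.28, 1.76] and Cish at 0.60 [-0.033, 1.20], whose interval reached 0. At day +14, 4 members were higher, against 16.8% of genes, and none lower, against 8.2%. They were Stat5a at 1.48 [0.81, 2.12], Jak2 at 1.11 [0.58, 1.61], Cish at 1.04 [0.42, 1.63] and Socs1 at 0.85 [0.29, 1.38]. Jak1 was the member lower in CD4 cells on both days, at -0.27 [-0.50, -0.038] and -0.23 [-0.49, 0.029]. The median gene was at 0.092 at day +7 and 0.094 at day +14. Socs3 was past the rule at day +7 and at 0.041 [-1.10, 1.04] at day +14, and Stat5a the reverse, with 0.41 [-0.68, 1.36] at day +7. The intervals of the 2 days overlapped for both genes.

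Foxp3 marks regulatory T cells, and Foxp3+ cells were set against CD4 cells without it. They had less Stat4 and more Socs3 on both days. The gate was mixed in coreceptor, since 98 of its 133 cells at day +7 and 16 of 52 at day +14 carried Cd8 and no Cd4 UMIs. The part of these cells in the ratios was not tested beyond the second gate given further on. At day +7, Socs3 was past 1.5-fold higher at 0.59 [0.028, 1.14], against 6.84% of genes, and Stat4 lower at -0.59 [-0.85, -0.33], against 4.63% (5.02% and 6.24% with scaling to the median ratio). Both lay at the edge of the size rule, and neither passed it with a mitochondrial limit of 5%. With the median-ratio scaling Socs3 was at 0.51 and short of the rule, and Jak2 at -0.65 was past it. At day +14, 2 members were higher, against 12.3% of genes, Socs3 at 1.34 [0.53, 2.09] and Cish at 0.76 [0.20, 1.28]. Another 4 were lower, against 8.76%, Stat4 at -1.72 [-2.36, -1.14], Stat5a at -0.99 [-1.92, -0.18], Jak2 at -0.66 [-1.28, -0.09] and Stat5b at -0.60 [-1.36, 0.073]. The ratio at day +14 minus that at day +7 was -1.36 [-2.35, -0.38] for Stat5a, -1.13 [-1.76, -0.50] for Stat4 and -0.91 [-1.38, -0.43] for Stat3, which went from 0.50 [0.19, 0.80] to -0.41 [-0.81, -0.036]. Stat3 and Stat5a were higher at day +14 in CD4 cells, while their intervals at the 2 days overlapped in this Foxp3+ gate.

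A second Foxp3+ gate, with at least 1 Foxp3 UMI, at least 1 Cd4 UMI and no Cd8 UMI, held 20 cells at day +7 and 14 at day +14. It was stricter on the coreceptor but looser on Foxp3. Of the first Foxp3+ gate only 13 and 8 cells had Cd4 and no Cd8 UMIs, so the second also held cells with 1 Foxp3 UMI. Stat4 was at 39.1 CPM [16.9, 77.1] and 43.9 CPM [11.9, 112] in the second gate, below the 117 CPM [108, 127] and 127 CPM [118, 138] of CD4 cells on both days. The lower Stat4 of Foxp3+ cells was thus seen in both gates, while its difference between the days was not. Cish was at 137 CPM [91.0, 198] at day +7 in the second gate, against 37.4 CPM [32.1, 43.4] in CD4 cells, and Socs1 at 103 CPM [63.6, 157] against 45.5 CPM [39.6, 52.1]. At day +14 each had 5 UMIs in the second gate and their intervals held the CD4 levels. Stat3 went from 39.1 CPM [16.9, 77.1] on 8 UMIs to 186 CPM [109, 298] on 17 UMIs, so in these cells the 2 days did not overlap. Its ratio of Foxp3+ over CD4 was at -0.40 at day +7 and 0.53 at day +14, both opposite in sign to the first gate. By the size rule 2 members were higher at day +14, Stat3 at 2.25 and Stat5b at 1.75, against 32.2% of genes, and 4 were lower, Jak2 at -2.54, Cish at -1.32, Socs1 at -0.91 and Stat5a at -0.64, against 21.9%. Stat5b and Stat5a had 2 to 7 UMIs on each day, and Jak2 had 13 and 1.

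**Figure D4:**
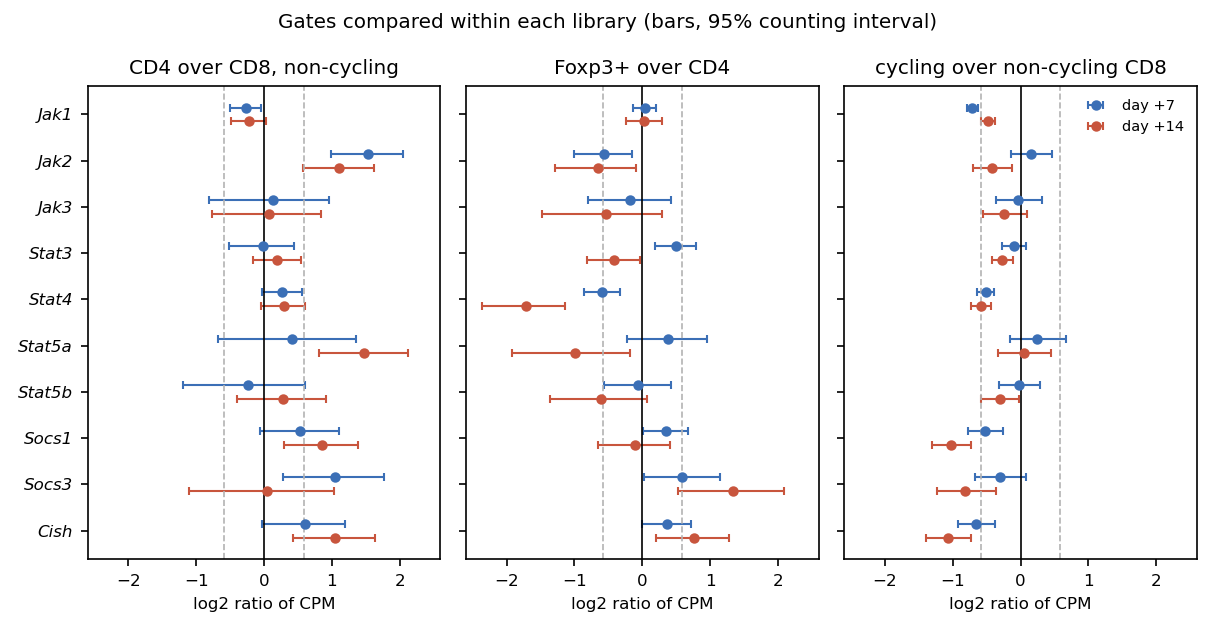
Log2 ratios of CPM between gates of the same library are shown for each gene at day +7 (blue) and day +14 (red), with 95% counting intervals and dashed lines at 1.5-fold. Jak2 lies right of 0 in CD4 over CD8 on both days, Stat4 lies left of 0 in Foxp3+ over CD4, and the 3 inhibitors lie left of 0 in cycling over non-cycling CD8 cells.

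Within the CD8 cells, those in the cell cycle had a lower CPM of Cish, Socs1, Jak1 and Stat4 on both days. At day +7, 2 of 10 members were at least 1.5-fold lower in cycling than in non-cycling cells, Jak1 at -0.71 [-0.79, -0.63] and Cish at -0.65 [-0.93, -0.37], against 8.12% of 6503 genes, and none was higher, against 16.7%. At day +14, 4 members were lower, against 11.6% of genes, and none higher, against 19.3%. They were Cish at -1.06 [-1.39, -0.72], Socs1 at -1.02 [-1.30, -0.73], Socs3 at -0.81 [-1.23, -0.37] and Stat4 at -0.59 [-0.73, -0.44]. Stat4 at day +7 was at -0.52 [-0.64, -0.39] and Socs1 at -0.52 [-0.77, -0.26], just short of the rule. Socs3 at day +7 was at -0.30 [-0.66, 0.076], an interval that held 0. Stat3, Stat5a and Jak3 were closer to 0 on both days, from -0.27 [-0.42, -0.11] for Stat3 at day +14 to 0.24 [-0.16, 0.67] for Stat5a at day +7. Cycling cells were deeper, with a median of 11444 UMIs at day +7 against 6214. The lower CPM was thus not a lower count per cell. With all UMIs of a cell counted, each of Cish, Socs1, Jak1 and Stat4 was found in a larger share of cycling than non-cycling cells on both days. At day +7 the shares were 22.7% against 16.6% for Socs1 and 16.5% against 14.6% for Cish. Il2ra, a receptor chain described further on, was at 0.88 [0.57, 1.20] at day +7. Its CPM was thus higher in cycling cells, unlike that of Cish and Socs1.

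The transcripts of a cytokine receptor and of the inhibitors it induces can be read in the same cell. CD8 cells of day +7 were thinned to 4000 UMIs each and split by Il2ra, the high-affinity chain of the IL-2 receptor, into 88 cells with at least 2 Il2ra UMIs and 5033 with none. Cish had 25.0 UMIs per 100 cells in the former and 7.81 in the latter, a log2 ratio of 1.68 [0.99, 2.30] on 22 and 393 UMIs. Socs1 had 23.9 and 9.14 UMIs per 100 cells, a log2 ratio of 1.39 [0.68, 2.01]. These 2 inhibitors were higher with Il2ra beyond the counting interval, Jak1 was lower at -0.54 [-0.94, -0.16], and the intervals of the other 7 members held 0. Socs3 was at 0.56 [-0.66, 1.56]. The split was counted for the 10 members only, so no share of all genes stands beside it. The cells of a library are not replicates, and the share of cycling cells was not matched between the groups. At day +14 only 8 CD8 cells had at least 2 Il2ra UMIs. They held 3 Cish UMIs, a log2 ratio of 2.33 [0.046, 3.89], and 0 Socs1 UMIs, against 9.83 per 100 cells without Il2ra, so the higher Socs1 of day +7 was not seen there, and few cells could show it.

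**Figure D5:**
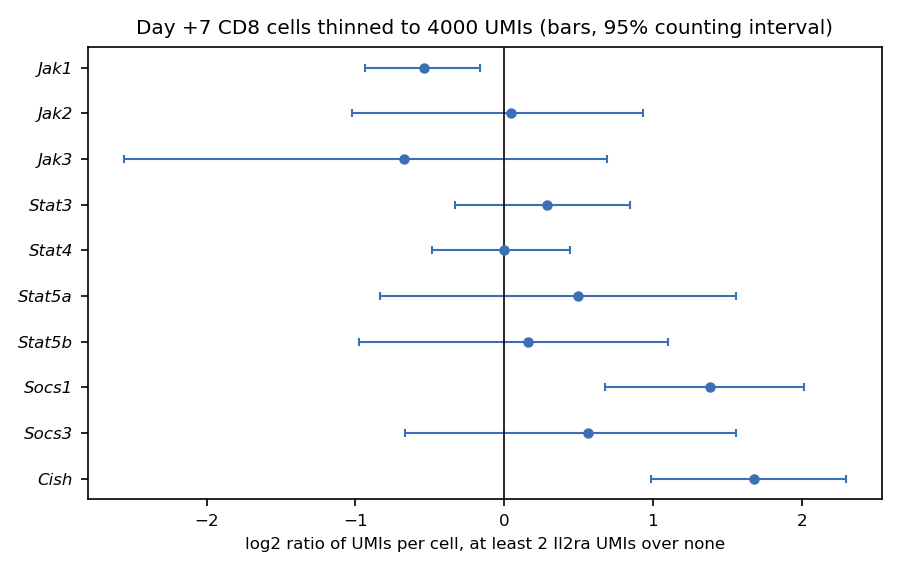
The log2 ratio of UMIs per cell is shown for each gene between day +7 CD8 cells with at least 2 Il2ra UMIs and those with none, after thinning to 4000 UMIs, with 95% counting intervals. Cish and Socs1 lie right of 0, Jak1 lies left of it, and the other intervals cross it.

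The same CD8 cells were split by 6 early genes of T cell receptor stimulation (Nr4a1, Nr4a2, Nr4a3, Egr1, Egr2 and Egr3), at least 3 UMIs in sum against none. At day +7, with 62 and 4525 cells, the interval of each member held 0, the largest ratio being that of Cish at 1.00 [-0.077, 1.89]. At day +14, with 332 and 3608 cells, Stat5b at 0.52 [0.11, 0.90], Stat4 at 0.38 [0.15, 0.60] and Stat3 at 0.33 [0.10, 0.56] were higher in the cells with early genes. Cish at -0.023 [-0.66, 0.56] and Socs1 at 0.16 [-0.38, 0.65] were not apart from 0. This split too was counted for the members only, with no share of all genes beside it.

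At equal depth the differences of Stat3 were also seen as shares of cells. After thinning to 4000 UMIs, Stat3 was found in 21.2% [18.1, 24.6] of non-cycling CD8 cells at day +7 and 39.4% [34.8, 44.3] at day +14, and in 16.0% [12.7, 19.7] and 36.4% [32.1, 40.8] of CD4 cells. Unthinned shares were 32.9% and 47.6% of non-cycling CD8 cells and 36.6% and 52.4% of CD4 cells. Jak2 was found in 14.2% [11.1, 17.8] and 22.2% [18.6, 26.1] of thinned CD4 cells and in 10.4% [9.45, 11.3] and 10.5% [9.57, 11.4] of cycling CD8 cells. Thinning left out 16 and 116 non-cycling CD8 cells, 14 and 200 CD4 cells and 24 and 106 cycling CD8 cells at day +7 and day +14. Stat4, which macrophages, granulocytes and erythroid cells have little of, was found in 3.70% [1.37, 7.89] and 5.68% [1.87, 12.8] of the thinned barcodes that bore other lineages, against 33.5% [32.1, 35.0] and 32.3% [30.9, 33.8] of cycling CD8 cells, with median depths before thinning of 15826 and 5614 UMIs in the former and 11445 and 10807 in the latter. For Stat3 and Jak2 no gate here is known to lack the gene, so their shares have no such background.

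Receptor chains that use these kinases differed between the days in both directions. Of 18 chains of JAK-using receptors, 13 had a mean of at least 10 CPM in cycling CD8 cells, of which 4 were at least 1.5-fold higher and 3 as much lower at day +14, against 9.11% and 2.88% of all genes, with a median of 0.28. Il2ra went from 39.3 CPM [37.7, 41.0] to 4.96 CPM [4.41, 5.57], a log2 ratio of -2.98 [-3.17, -2.81], and Il7r, the IL-7 receptor chain, from 33.6 CPM [32.1, 35.1] to 5.67 CPM [5.08, 6.32]. Il12rb2, the signalling chain of the IL-12 receptor, was also lower, at -1.25 [-1.44, -1.07]. The chains that were higher included Il10ra at 1.42 [1.30, 1.54], Il21r at 1.02 [0.93, 1.11] and Ifnar2 at 0.90 [0.81, 1.00], for IL-10, IL-21 and type I interferon. Chains of 1 receptor could differ, since Il2rb, the signalling chain of the IL-2 receptor, was at 0.32 [0.29, 0.35] in the same cells while Il2ra was lower (Il2rb was added after its values were seen). In CD4 cells Il2ra at -1.29 [-1.64, -0.96] and Il7r at -1.23 [-1.50, -0.97] were lower and Il10ra at 1.01 [0.63, 1.39] and Il21r at 0.80 [0.50, 1.09] were higher. In Foxp3+ cells Il2ra was at 181 CPM [163, 200.5] and 152 CPM [123, 185], and Il7r, at 139.8 CPM [124, 157] and 204 CPM [171, 242], was higher at day +14 there.

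Among the 18 other core genes of the pathway, Ptpn6 was lower at day +14 in each gate. In cycling CD8 cells 11 core genes were measured, with a median of 0.32. Ptpn6, which encodes the phosphatase SHP-1, was at -1.20 [-1.26, -1.14] in cycling CD8 cells, -0.65 [-0.88, -0.44] in non-cycling CD8 cells, -0.80 [-0.96, -0.63] in CD4 cells and -1.70 [-2.37, -1.09] in Foxp3+ cells. Tyk2, the fourth JAK, was at 0.99 [0.55, 1.43] and Stat6 at 0.95 [0.52, 1.38] in non-cycling CD8 cells, where 3 of 11 core genes were 1.5-fold higher, against 19.3% of all genes, and 1 lower, against 4.35%. In CD4 cells 3 of 13 were higher and 2 lower, against 15.4% and 3.04%, and Socs2, another inhibitor, was lower at -1.09 [-1.74, -0.46]. Socs2 set the Foxp3+ cells apart, with 48.1 CPM [39.0, 58.6] at day +7 against 66.5 CPM [48.1, 89.5] at day +14 against 14.0 CPM [10.9, 17.9] and 6.60 CPM [4.55, 9.28] in CD4 cells.

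Genes known to be induced through STATs did not share 1 direction. Of 17, 15 were measured in cycling CD8 cells, 6 above and 9 below 0, with a median of -0.13 against 0.18 for all genes. Of these, 1 was 1.5-fold higher and 2 lower, against 9.11% and 2.88% of all genes. Ccnd2, a D-type cyclin, was higher at 1.00 [0.94, 1.06], and Furin at -1.06 [-1.19, -0.93] and Bcl2l1, which encodes the survival protein BCL-XL, at -0.76 [-0.92, -0.59] were lower. In CD4 cells Irf1 at 0.88 [0.67, 1.10] and Bcl2 at 0.84 [0.63, 1.06] were higher, and Gadd45g at -0.90 [-1.26, -0.55] and Pim2 at -0.76 [-1.18, -0.36] lower, with 2 of 15 past 1.5-fold higher and 4 lower, against 15.4% and 3.04% of all genes. Foxp3+ cells had more Pim1, a kinase induced by STAT5, than CD4 cells on both days, at 1.15 [1.02, 1.27] and 1.90 [1.70, 2.09], and less Bcl2, at -2.00 [-2.58, -1.46] and -1.82 [-2.54, -1.18]. Cycling CD8 cells had a lower CPM of most of these genes than non-cycling CD8 cells, 14 of 15 being below 0 on each day. Their medians were -0.42 at day +7 and -0.58 at day +14, against 0.062 and 0.031 for all genes. Of the 15, 5 and 7 were at least 1.5-fold lower, against 8.12% and 11.6% of all genes. None was as much higher, against 16.7% and 19.3%.

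Across the 10 groups of day and gate, the highest correlation between members was that of Socs1 and Cish. Pearson correlations of log2(CPM + 1), over groups that share libraries and differ in depth, are given as a description. It was 0.96, and each was among the 3 genes most like the other of 6962, with Timp2 (0.96 with both) beside them, Icos (0.95) for Socs1 and Srgn (0.95) for Cish. Stat3, Jak3, Stat5a and Stat5b correlated with each other at 0.76 to 0.85. The gene most like Stat3 was Tox (0.98), a factor of chronically stimulated T cells, and Akna (0.97) was also among the closest. The closest genes were Inpp5b (0.99), Ddhd1 (0.96) and Tprg (0.96) for Stat5b, and Farp1 (0.97), Lrrcc1 (0.96) and Ptpn1 (0.96) for Stat5a, the last a phosphatase of the pathway. Jak1 was closest to Ablim1 (0.97), Ech1 (0.96) and Prr13 (0.94), Jak2 to Lnx2 (0.95), Tnfaip8 (0.95) and Faah (0.94), and Jak3 to Stim2 (0.96), Rcor1 (0.96) and Sh2d1a (0.96). Stat4 was closest to Ttc19 (0.97), Skap1 (0.96) and Evl (0.95), and Socs3 to H13 (0.94), Pcsk7 (0.91) and Tmem203 (0.91). The correlation of Cish with Stat4 was -0.092 and with Jak3 -0.034.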

How the data were processed

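Single-cell RNA-seq was analyzed in 2 libraries of sorted splenic donor T cells, 1 per day. The authors deposited UMI counts per gene and barcode without normalization, and the submitters' processing notes name Cell Ranger 6.1.2 and mm10. Here barcodes were filtered by genes and mitochondrial share as in the report, and cells were gated by UMIs of marker genes. Cycling cells had at least 5 UMIs of the 18 cell cycle genes per 10000 UMIs and at least 3 in all, and non-cycling cells at most 2 per 10000, so cells between these were in neither gate. The study removed doublets with Scrublet. No doublet caller was run here, barcodes with both Cd4 and Cd8 UMIs were outside the CD4 and CD8 gates, and removal of the deepest 5% was an alternative. Counts were summed per gate and scaled to its total (Python 3.11.15, numpy 2.4.6, scipy 1.17.1, pandas 2.3.3). With 1 library per day no test was made. The calculations were tested on simulated data. Positions came from GENCODE M21 and promoters from RefSeq. All members were described, with genes of 3 further lists where the ratio was among the 3 highest or 3 lowest of the list at a mean of at least 10 CPM. Values of some genes that this rule names are not reported here. The members and lists were chosen with earlier results of these data known. The split by early genes and Il2ra had been set for non-cycling CD8 cells, where 5 cells at day +7 had 2 Il2ra UMIs, and was widened to all CD8 cells after these numbers were seen.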

Additional observations from a re-analysis of the deposited data

Results flagged for a closer look

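Socs1 moved in opposite directions between the days in 2 gates. Its log2 ratio of day +14 over day +7 was 0.35 in CD4 cells and -0.233 in cycling CD8 cells, and the difference of the ratios was 0.58 [0.30, 0.86] by counting error. With 1 library per day this difference was not tested over mice. Under the 10 alternatives the ratio lay between 0.14 and 0.62 in CD4 cells and between -0.44 and -0.097 in cycling CD8 cells. The median gene was at 0.17 in CD4 cells, inside the interval of Socs1 there, [0.09, 0.61]. In cycling CD8 cells it was at 0.18, outside the interval of Socs1, [-0.35, -0.12]. In CD4 cells Socs1 was thus not apart from the shift of all genes by counting error. In CD8 cells outside the cycle Socs1 was at 0.27 [-0.100, 0.64]. The CD4 gate held cycling and non-cycling cells together. Cycling CD4 cells alone had 39.8 CPM [33.3, 47.3] of Socs1 at day +7 and 45.4 CPM [38.5, 53.1] at day +14, with overlapping intervals. The 2 flagged gates thus differed in cycling state as well as in lineage.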

How the results depend on the processing

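No paired analysis was possible because each day had 1 library and so no replicates to pair. With 1 library per day no alternative bears on differences between mice. Low counts limit the values of Socs3, Stat5a, Stat5b and Jak3 in non-cycling CD4 and Foxp3+ cells, on 10 to 51 UMIs per gate and day. In Foxp3+ cells at day +14 they also limit Stat4, Jak2 and Cish, on 25, 27 and 37 UMIs. Of 1100 values of members under 10 alternatives, 1022 moved by less than their counting interval and 78 beyond it, and 65 changed sign, 46 of them within that interval. Among members past 1.5-fold 1 changed sign, Stat4 of day +14 over day +7 in Foxp3+ cells, which was 0.164 in the gate with Cd4 and no Cd8. In CD4 cells the count of members past 1.5-fold between the days went from 5 to 3 under median-ratio scaling, to 3 with a looser CD8 and stricter CD4 gate (Stat3, Stat5a and, lower, Socs3) and to 3 with cells thinned to 4000 UMIs, and Stat3 and Stat5a were among them each time. In Foxp3+ over CD4 at day +7 the count went from 2 to 1 with the mean of per-cell CPM, with barcodes bearing other lineages included and without the deepest barcodes, to 0 with a mitochondrial limit of 5% and with the looser CD8 and stricter CD4 gate, and to 6 with Foxp3+ cells that had Cd4 and no Cd8. In cycling over non-cycling CD8 cells at day +7 it went from 2 to 4 when ribosomal protein and mitochondrial genes were left out of the total. The causes were not tested. In these 9 comparisons the other 80 of 90 counts stayed within 1.5 times, though the members counted could be exchanged. For the days in all T cells the count of 2 became 4 with the mean of per-cell CPM, and in Foxp3+ cells the count of 1 became 5 with that mean, 6 with Cd4 and no Cd8, 3 without the deepest barcodes and 2 thinned. Median-ratio scaling lowered every log2 ratio of day +14 over day +7 by 0.23 over all T cells, 0.10 in non-cycling and 0.21 in cycling CD8 cells, 0.09 in CD4 cells and 0.02 in Foxp3+ cells, and in non-cycling CD8 cells it turned the shares of all genes to 14.3% higher and 6.15% lower. Stat3 of day +14 over day +7 lay between 0.79 and 1.09 in non-cycling CD8, between 0.63 and 0.84 in cycling CD8 and between 1.19 and 1.60 in CD4 cells over all alternatives. With genes from a mean of 1 CPM the share at least 1.5-fold higher at day +14 was 15.2% in cycling CD8 and 24.8% in CD4 cells, and with 1 CPM added to each value 7.6% and 14.2%.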
